A study of Mus musculus with 8 samples.

Results

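The genes described here are the 9 measured genes of the epidermal anchoring apparatus: the integrin subunits Itga6, Itgb4, Itga3 and Itgb1, the transmembrane collagen Col17a1, the plakins Dst and Plec, and the laminin chains Lama3 and Lamb3. Every probe set that the platform annotation assigns to 1 of these genes and to no other was taken, which gave 22 probe sets of 45037 in all and 9 genes of 17097. Each probe set was kept apart. The 8 arrays were of pre-tumour mouse interfollicular epidermis, which is the epithelium outside the hair follicles, with 4 arrays of G9a cKO and 4 of G9a WT animals. Ehmt2 encodes G9a, an enzyme that methylates lysine 9 of histone H3, and the comparison of both genotypes addresses what its loss changes in expression.

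All animals, WT included, had their shaved back skin treated once a week for 6 weeks from the age of 8 weeks with the carcinogen DMBA (200 µl at 0.25 mg/ml) and the tumour promoter TPA (200 µl at 0.02 mg/ml), and are labelled as 15 weeks old. No group without DMBA and TPA is among the samples. The labels do not name the Cre line, the strain or the part of Ehmt2 that was removed, and they do not say how the cells were isolated.

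Basal keratinocytes are held to the basement membrane by hemidesmosomes. The integrin alpha 6 beta 4 pair (Itga6, Itgb4) binds laminin-332 outside the cell, collagen XVII (Col17a1) spans the membrane beside it, and plectin (Plec) and the epithelial form of dystonin (Dst, also called BP230) tie both to keratin filaments. Lama3 and Lamb3 encode the alpha 3 and beta 3 chains of laminin-332. The integrin alpha 3 beta 1 pair (Itga3, Itgb1) binds the same laminin in focal adhesions, which connect to actin. Inherited loss of hemidesmosomal proteins or of laminin-332 causes blistering of the skin.

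Dst is the gene whose probe sets differed most from each other in fold change, and it is known to be read from separate promoters into an epithelial form and into longer forms known from nerve and muscle. From RefSeq's table of gene starts (build GRCm38.p6), 8 windows for 5 of the 9 genes were used, 2 of them for Dst. These counts do not show that the table lacks starts for the other genes. The 250 bases before each of these Dst starts are shown because a probe set can read transcripts of one start and not of the other. Capitals mark CG dinucleotides.
Dst, upstream start, chr1:34011345-34011594, plus strand: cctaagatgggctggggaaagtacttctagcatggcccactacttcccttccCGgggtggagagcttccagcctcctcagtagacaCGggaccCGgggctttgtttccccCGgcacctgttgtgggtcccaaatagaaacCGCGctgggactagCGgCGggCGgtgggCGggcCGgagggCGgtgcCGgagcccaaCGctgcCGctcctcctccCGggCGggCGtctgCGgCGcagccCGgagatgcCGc
Dst, downstream start, chr1:34160010-34160259, plus strand: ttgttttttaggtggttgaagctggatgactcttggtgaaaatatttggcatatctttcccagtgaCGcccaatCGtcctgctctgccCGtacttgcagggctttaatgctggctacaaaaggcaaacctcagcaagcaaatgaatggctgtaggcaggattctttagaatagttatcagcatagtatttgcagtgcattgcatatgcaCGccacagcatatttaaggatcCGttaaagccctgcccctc
The first window holds 22 CG dinucleotides, a count that 14.8% of the 32851 windows of this length in the table reach. The second holds 5, which 55.6% of them reach. The files do not say which start the transcript of each probe set uses, and no protein or DNA binding was measured.

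The labels were first checked on the arrays. Ehmt2 read 6.61 ± 0.36 in cKO and 9.49 ± 0.28 in WT at probe set 1460692_PM_at (log2, mean ± SD, n = 4 each; limma adjusted p = 0.000244), while its other probe set read 8.36 ± 0.06 and 8.35 ± 0.12. The array medians lay between 5.72 and 5.80 (log2). Even the most similar pair of arrays differed, with an SD of 0.131 between their values. On the first principal component of the table WT 1, 2 and 3 lay between -20.6 and -11.4, cKO arrays between -10.7 (cKO 2) and 19.2, and WT 4 beyond them at 23.5. The basal keratin genes Krt5 and Krt14 read between 12.3 and 12.9 in every array, with group means at most 0.03 apart. Trp63, the basal transcription factor gene, stood at 0.01, 0.03, 0.08 and -0.16 at its 4 probe sets (cKO minus WT, log2), the lowest limma adjusted p being 0.901. Of the whole basal keratinocyte list, which holds 4 of the genes described here, none of 14 measured genes passed (limma adjusted p under 0.05). Of the 14, 5 had an unadjusted p under 0.05 at some probe set, Dst among them. Over all probe sets 7.98% did, but these genes had 29 probe sets, and the share by gene was not counted. The probe sets ran from -0.37 to 0.32 (cKO minus WT, log2, lowest limma adjusted p = 0.0712). Of 15 suprabasal genes none passed, with a range of -0.38 to 0.10 and a lowest limma adjusted p of 0.0740. None of 65 measured marker genes of fibroblasts, endothelium, smooth muscle and pericytes, leukocytes, melanocytes, Schwann cells and adipocytes passed, where 0.760% of all genes did, a share so low that 0 of 65 does not stand apart from it. The highest of these markers were Cd74 of the leukocyte list at 0.49 (SE 0.32) and Acta2 of the smooth muscle list at 0.41 (SE 0.11). The lowest probe set of these lists was one of the fibroblast list, at -0.44. The lowest limma adjusted p of that list was 0.415.

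No probe set of the 9 genes passed the test between the genotypes. Limma called 0 of 22, against 0.466% of all probe sets tested, and the lowest adjusted p among the 22 was 0.389. At an unadjusted p under 0.05, limma picked 2 of 22, both of Dst, against 7.98% of all probe sets. In none of the 22 did all cKO arrays lie on one side of all WT arrays, which happened in 4.89% of all probe sets. The log2 fold change, cKO minus WT, was above 0 in 6 and below 0 in 16, where 53% of all probe sets lay above 0. Its median was -0.03, against a median of 0.01 over the whole table. The 22 share arrays and genes, so that their signs are not independent, and without cKO 4 their median was 0.0014. The size of the change had a median of 0.05 for these probe sets and of 0.05 for all. A p above the threshold does not show that expression was equal, so that the intervals matter: the 95% interval of the log2 fold change lay within -0.65 and 0.33 for every one of the 22, so none reached a 2-fold change, and it held 0 in 20.

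**Figure D1:**
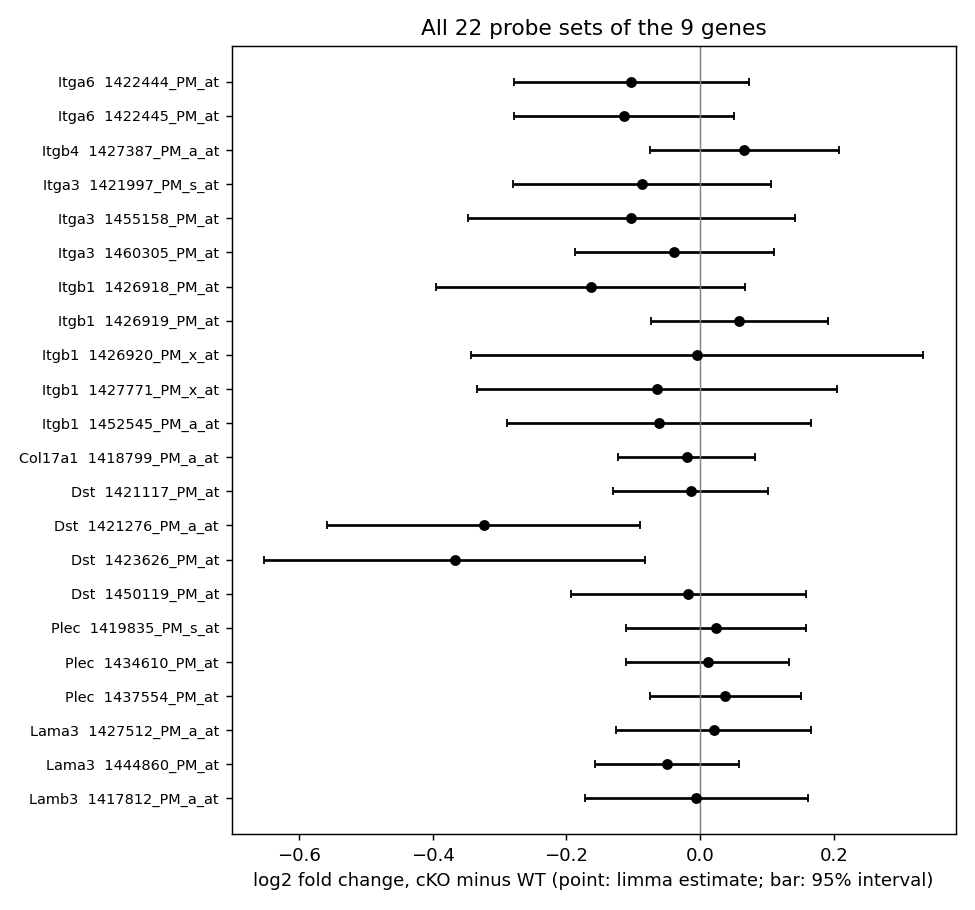
The horizontal axis gives the log2 fold change, cKO minus WT, with its 95% interval from limma, for each of the 22 probe sets on the vertical axis. The intervals of 20 probe sets cross 0, and those of Dst at 1421276_PM_a_at and 1423626_PM_at lie below it, from -0.56 to -0.09 and from -0.65 to -0.08.

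The hemidesmosomal integrin subunits were measured at 3 probe sets. Itga6, the laminin-binding alpha subunit, read 11.24, 11.07, 10.99 and 10.88 in cKO 1 to 4 and 11.15, 11.14, 11.22 and 11.11 in WT 1 to 4 at probe set 1422445_PM_at (log2). The cKO arrays spread around the narrow WT group, with cKO 1 above all WT arrays and cKO 2, 3 and 4 below them. The fold change was -0.11 (log2, SE 0.07, limma adjusted p = 0.816, exact permutation p = 0.229, two-sided). Its other probe set, 1422444_PM_at, stood at -0.10 (SE 0.08). Itgb4, whose long cytoplasmic tail binds plectin, read 10.69, 10.71, 10.68 and 10.52 in cKO and 10.57, 10.53, 10.52 and 10.72 in WT. cKO 1, 2 and 3 were thus near WT 4, and cKO 4 was near the other WT arrays, and the fold change was 0.07 (SE 0.06, limma adjusted p = 0.919, exact permutation p = 0.457). Both intervals, -0.28 to 0.05 for Itga6 at the first probe set and -0.08 to 0.21 for Itgb4, included 0.

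Of the focal adhesion integrin, Itga3 was measured at 3 probe sets and Itgb1, the beta subunit that pairs with many alpha subunits, at 5. At its brightest probe set, 1460305_PM_at, Itga3 read 10.10, 10.26, 10.04 and 9.95 in cKO 1 to 4 and 10.14, 10.07, 10.13 and 10.17 in WT 1 to 4. Again the WT arrays lay inside the range of the cKO arrays, with an SD of 0.04 against 0.13. The fold change was -0.04 (SE 0.07, limma adjusted p = 0.973, exact permutation p = 0.629), and the other probe sets of Itga3 stood at -0.09 and -0.10.

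Itgb1 read 10.76, 10.73, 10.45 and 10.42 in cKO 1 to 4 and 10.60, 10.77, 10.77 and 10.47 in WT 1 to 4 at 1452545_PM_a_at. In this gene cKO 3, cKO 4 and WT 4 were low, WT 1 lay between, and the others were higher. The fold change was -0.06 (SE 0.10, limma adjusted p = 0.973, exact permutation p = 0.514). Among the other probe sets of Itgb1, 1426918_PM_at had the lowest value, -0.16 (SE 0.10, limma adjusted p = 0.803), and 1427771_PM_x_at stood at -0.06. The remaining pair, 1426919_PM_at and 1426920_PM_x_at, read below the median of the table, at 4.14 and 4.61 on average, and stood at 0.06 and 0.00; such levels were not shown to lie above background. The ending _x_at marks probes that other transcripts may share.

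Collagen XVII is the second transmembrane part of the hemidesmosome. Col17a1 read 12.34, 12.37, 12.36 and 12.27 in cKO 1 to 4 and 12.36, 12.33, 12.30 and 12.43 in WT 1 to 4. The groups overlapped throughout, and the fold change was -0.02 (SE 0.05, limma adjusted p = 0.983, exact permutation p = 0.657). Its interval, -0.12 to 0.08, was the narrowest of the 22.

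Of the keratin linkers, Plec stood between 0.01 and 0.04 at its 3 probe sets, and none passed the test. At 1419835_PM_s_at it read 11.48, 11.36, 11.39 and 11.23 in cKO 1 to 4 and 11.42, 11.28, 11.30 and 11.37 in WT 1 to 4 (0.02, SE 0.06, limma adjusted p = 0.984, exact permutation p = 0.714). The ending _s_at marks a set whose probes match several transcripts.

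Dst did not pass at its brightest probe set, 1421117_PM_at, which read 11.93, 11.79, 11.81 and 11.78 in cKO 1 to 4 and 11.88, 11.80, 11.78 and 11.91 in WT 1 to 4. The fold change there was -0.01 (SE 0.05, limma adjusted p = 0.993, exact permutation p = 0.914), and at 1450119_PM_at, which the annotation derives from the same transcript record, it was -0.02 (SE 0.08). The other probe sets of Dst, annotated from different records, read lower on average in cKO. At 1421276_PM_a_at the values were 7.67, 7.42, 7.46 and 7.27 in cKO 1 to 4 and 7.87, 7.66, 7.61 and 7.98 in WT 1 to 4, a fold change of -0.32 (SE 0.10, limma adjusted p = 0.389, exact permutation p = 0.0857). The groups overlapped through cKO 1, which lay just above WT 2 and WT 3. At 1423626_PM_at the values were 8.95, 8.63, 8.81 and 8.56 in cKO 1 to 4 and 9.27, 8.87, 8.92 and 9.36 in WT 1 to 4, a fold change of -0.37 (SE 0.13, limma adjusted p = 0.438, exact permutation p = 0.0857), again with only cKO 1 reaching into the WT range. Neither passed the test, and without WT 4 they stood at -0.26 and -0.28. Which transcripts of Dst each probe set reads was not measured.

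**Figure D2:**
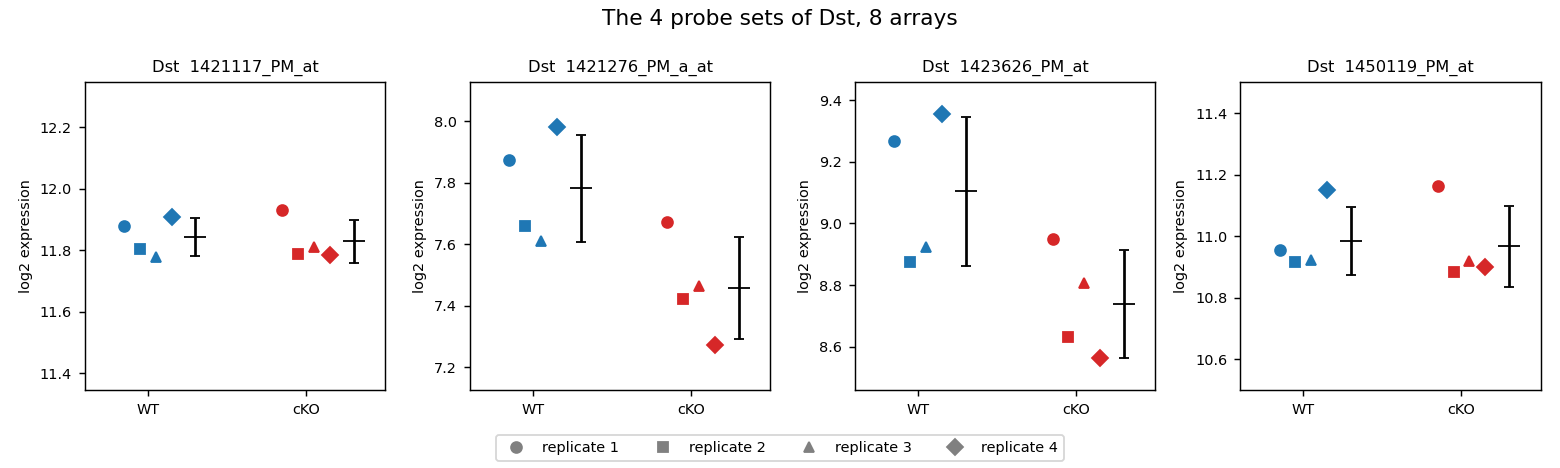
Each panel gives log2 expression at 1 probe set of Dst for the 4 WT (blue) and 4 cKO (red) arrays, with the mean and SD as bars and the same span in every panel. The cKO means lie 0.32 and 0.37 below the WT means in the panels 1421276_PM_a_at and 1423626_PM_at and within 0.02 in the others.

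The laminin-332 chains did not pass the test either. Lama3 read 10.62, 10.59, 10.48 and 10.38 in cKO 1 to 4 and 10.50, 10.47, 10.42 and 10.60 in WT 1 to 4 at 1427512_PM_a_at (0.02, SE 0.06, limma adjusted p = 0.989, exact permutation p = 0.800). Its second probe set, 1444860_PM_at, read below the median of the table, at 4.79 on average, and stood at -0.05 (SE 0.05). Lamb3 read 11.12, 11.05, 10.89 and 10.77 in cKO 1 to 4 and 10.98, 10.93, 10.94 and 10.99 in WT 1 to 4, a fold change of -0.01 (SE 0.07, limma adjusted p = 0.996, exact permutation p = 1). Here the 4 WT arrays agreed within an SD of 0.03, while cKO 1 and cKO 2 lay above all of them and cKO 3 and cKO 4 below.

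**Figure D3:**
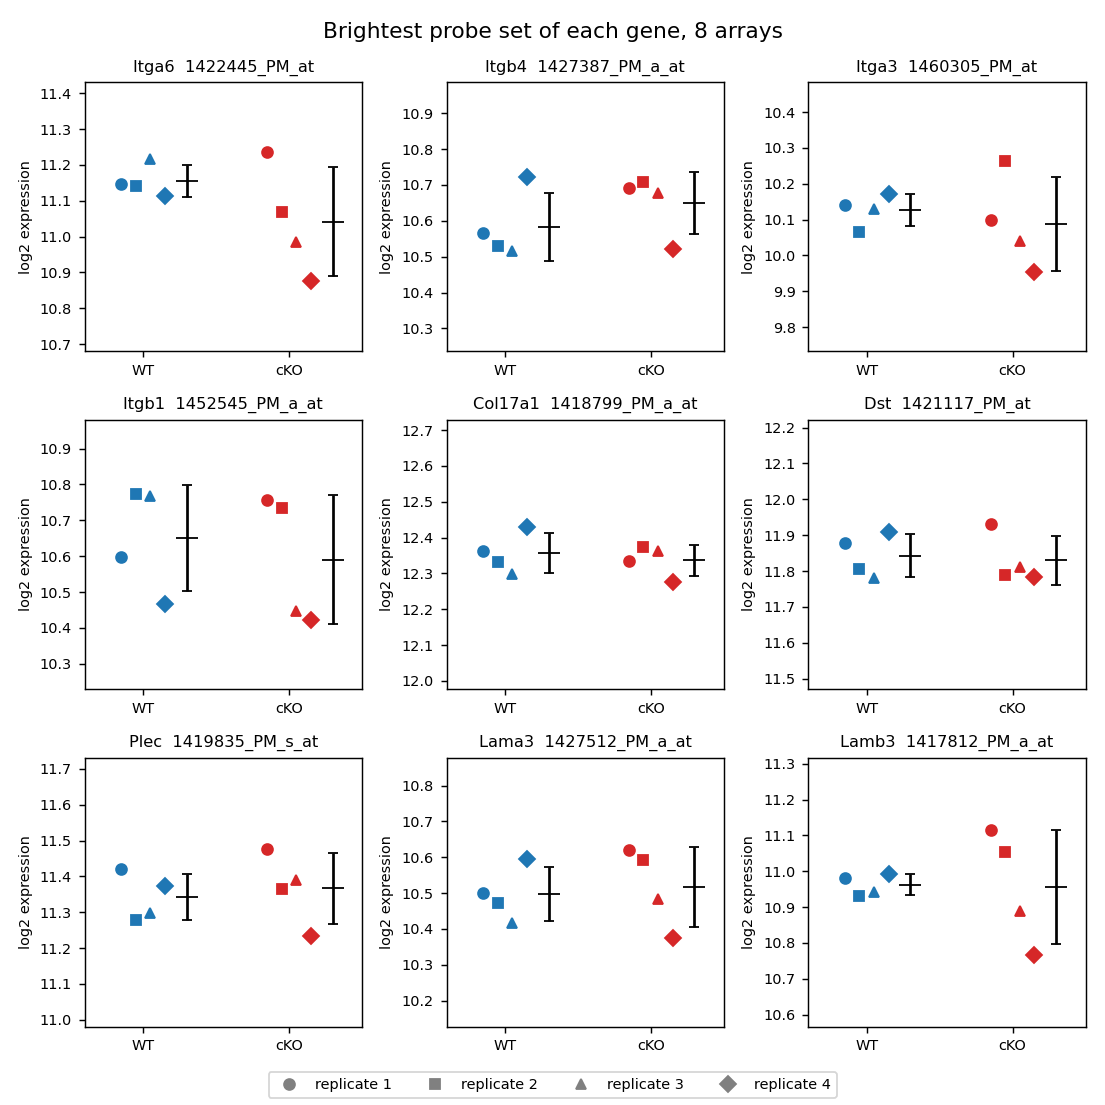
Each panel gives log2 expression at the brightest probe set of 1 of the 9 genes for the 4 WT (blue) and 4 cKO (red) arrays, one symbol per replicate number, with the mean and SD as bars and the same span in every panel. The groups overlap in all 9, and in Itga6, Itga3 and Lamb3 the cKO arrays spread wider (SD 0.15, 0.13 and 0.16) than the WT arrays (0.04, 0.04 and 0.03).

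The wider spread in cKO was shared by most of these probe sets. The SD over 4 arrays was larger in cKO than in WT in 17 of 22, or 77.3%, against 50.3% of all probe sets, and its median was 0.13 in cKO and 0.07 in WT, against 0.09 and 0.08 over the table. The probe sets share arrays and genes, so that they are not independent, and no test was made. cKO 4 was the lowest of the 8 arrays in 16 of 22 probe sets and the lowest cKO array in 20, while cKO 1 was the highest of the 8 in 8. The median of the 22 values, each centred on its mean over the 8 arrays, was 0.09 in cKO 1, 0.07 in cKO 2, -0.07 in cKO 3 and -0.16 in cKO 4, and it lay between 0.00 and 0.03 in the WT arrays. The cKO arrays were parted alike by the first principal component of the whole table, at -0.54 for cKO 1, -10.7 for cKO 2, 18.0 for cKO 3 and 19.2 for cKO 4. WT 4, at 23.5 on that component, had a median of 0.02 in these genes. What the component has to do with these levels was not tested.

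**Figure D4:**
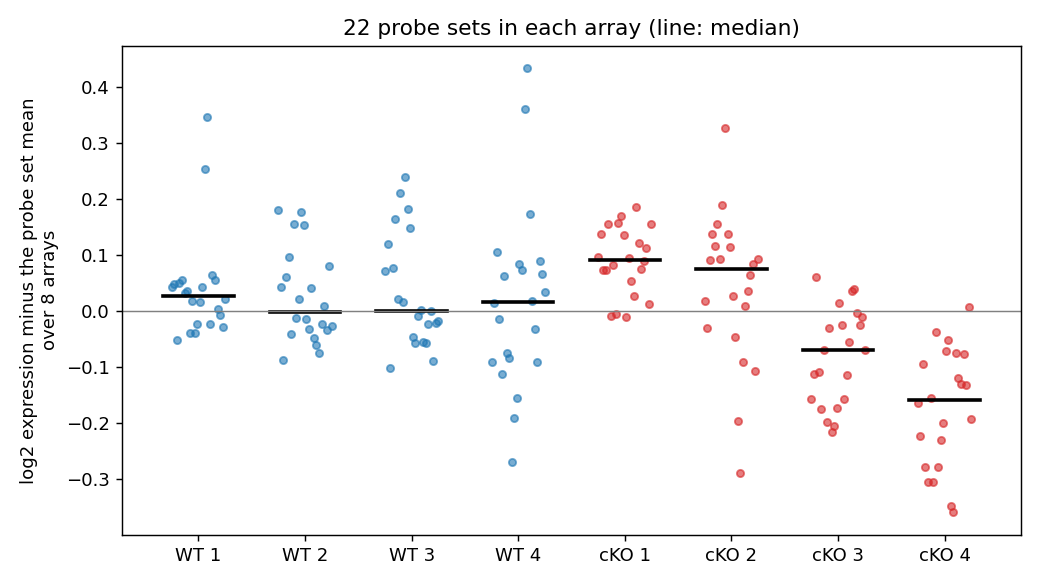
The vertical axis gives log2 expression minus the mean of each probe set over 8 arrays, for the 22 probe sets (points) in each array, with the median as a line. The medians run from -0.16 in cKO 4 to 0.09 in cKO 1, and all 4 WT medians lie between them near 0.

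The genes whose pattern over the 8 arrays was most like that of a member were sought among 17096 others, for the 3 members with the widest range at their brightest probe set. The measure was the mean absolute difference between centred log2 values, with a median over all genes of 0.11 for Itga6, 0.14 for Itgb1 and 0.10 for Lamb3. For Itga6 the nearest were Tent4b (0.02), Gfpt1 (0.02) and 4930470H14Rik (0.02), for Itgb1 1700020L24Rik (0.02), Haus8 (0.03) and Dusp4 (0.03), and for Lamb3 Klrd1 (0.02), Pkd2l2 (0.02) and Pla2g10 (0.02). With 8 arrays and so many genes, close matches of this kind describe these arrays only.

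Genes around the apparatus were counted from lists. Of 9 measured partners of hemidesmosomes and anchoring fibrils, none passed, against the same 0.760% of all genes with at least 1 called probe set, and the list's median was 0.01. Cd151, a tetraspanin that associates with integrin alpha 6 and alpha 3 pairs, stood between -0.02 and 0.04 at its 4 probe sets. Col7a1, the anchoring fibril collagen beneath the hemidesmosome, stood at 0.05 (SE 0.11) and Erbin, which binds integrin beta 4, at -0.11 (SE 0.05, limma adjusted p = 0.571). None of 19 further integrin subunits passed, with a median of 0.02. Itgb6, which is induced in wounded and activated keratinocytes, stood at -0.35 and -0.36 (SE 0.21 and 0.23, limma adjusted p = 0.792 and 0.824). Of 28 genes of the integrin adhesion machinery none passed (median -0.03), the furthest by p being Lims1, an adaptor that links integrins to actin through Ilk and parvin, at -0.21 (SE 0.07, limma adjusted p = 0.389). Of 16 proteases known to process laminin-332 or to shed collagen XVII, or related to such, none passed (median -0.05). At some probe set 6 of the 16 had an unadjusted limma p under 0.05. These genes had 29 probe sets, which ran from -0.47 to 0.15, and the share by gene at that cutoff was not counted. Tll1, of the family that cleaves laminin chains, stood at -0.47 (SE 0.10, limma adjusted p = 0.107), from 4.22 ± 0.20 in WT to 3.75 ± 0.09 in cKO. Both levels lay below the array medians and were not shown to lie above background. Adam17, a sheddase of collagen XVII, stood at -0.12 (SE 0.05, limma adjusted p = 0.612) at 1421858_PM_at.

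Laminin chains of other trimers passed the test. Of 27 measured basement membrane genes, 2 rose in cKO and 1 fell, against 0.638% and 0.123% of all genes, and the list's median was 0.01. At some probe set 8 of the 27 had an unadjusted limma p under 0.05, a cutoff at which the share by gene was not counted. The list's 50 probe sets ran from -0.45 to 0.52 (cKO minus WT, log2), so that changes were not shown to be confined to the chains named here. Both that rose encode alpha chains: Lama1, the chain of laminin-111 found in embryonic basement membranes, and Lama2, the chain of laminin-211 known from muscle and nerve. The gene that fell, Lamb1, encodes a beta chain found in both of those trimers. Lama2 read 6.40, 6.37, 6.36 and 6.34 in cKO 1 to 4 and 5.87, 5.84, 5.89 and 5.83 in WT 1 to 4 (log2). These groups were far apart for their spread, and Lama2 rose by 0.51 (SE 0.04, 1.43-fold, limma adjusted p = 0.000509). Lama1 read 6.96, 6.84, 6.98 and 6.86 in cKO 1 to 4 and 6.34, 6.33, 6.44 and 6.44 in WT 1 to 4, and rose by 0.52 (SE 0.05, 1.44-fold, limma adjusted p = 0.00227). Each was measured at 1 probe set, and both stayed past the threshold under every one of 15 alternatives run on the probe sets.

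Lamb1 fell at 1 of its 4 probe sets. At 1451241_PM_at it read 4.94, 4.87, 4.83 and 4.92 in cKO 1 to 4 and 5.28, 5.27, 5.18 and 5.15 in WT 1 to 4, so that it fell by 0.33 on the log2 scale (SE 0.05, limma adjusted p = 0.0227). All cKO arrays lay below all WT arrays there and at 1446180_PM_at and 1424114_PM_s_at, which stood at -0.20 and -0.35 and did not pass (limma adjusted p = 0.194 and 0.225), while 1424113_PM_at stood at -0.06. Lamb1 lost the threshold without cKO 2 (limma adjusted p = 0.0834), cKO 3 (0.108), cKO 4 (0.0516), WT 1 (0.103), WT 2 (0.0654) or WT 3 (0.0730), and its levels were not shown to lie above background. Lamc1, the gamma chain of the same trimers, stood at -0.08 at both of its probe sets, and Lamb2 at 0.17 (SE 0.08, limma adjusted p = 0.700).

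Fibroblasts, endothelium and Schwann cells also make laminins, and which of them make these chains here was not measured. In RNA pooled from many cells, a change in the number of such cells and a change in RNA per cell cannot be told apart. The mean log2 level of the fibroblast list (13 genes measured, none called) ran from 5.13 to 5.21 in cKO and from 5.16 to 5.23 in WT. That of the endothelial list (14 genes, none called) ran from 5.42 to 5.51 and from 5.41 to 5.48, and that of the Schwann cell list (4 of 8 listed genes measured, none called) from 5.34 to 5.49 and from 5.37 to 5.49. That of the smooth muscle and pericyte list (7 of 9 listed genes measured, none called) ran from 5.40 to 5.50 and from 5.40 to 5.46, and there Acta2, the smooth muscle actin gene, read 7.47 ± 0.11 in cKO and 7.06 ± 0.23 in WT (limma adjusted p = 0.248). The groups overlapped in each of these lists. On a log scale no marker reads 0. At the first probe set of each by p, the defining markers read 3.96 ± 0.05 in cKO and 4.05 ± 0.04 in WT for Pdgfra, 4.40 ± 0.05 and 4.36 ± 0.03 for Cdh5, and 4.41 ± 0.12 and 4.37 ± 0.10 for Sox10. These levels lay below the array medians and were not shown to lie above background. Other genes of the lists moved more than these markers. Probe sets ran from -0.44 to 0.20 (fibroblast), -0.15 to 0.15 (endothelial) and -0.20 to 0.07 (Schwann cell; cKO minus WT, log2). An unadjusted limma p under 0.05 was reached by 2 fibroblast, 2 endothelial and 0 Schwann cell genes. The part of these cell types in the levels of Lama1, Lama2 and Lamb1 was not tested.

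**Figure D5:**
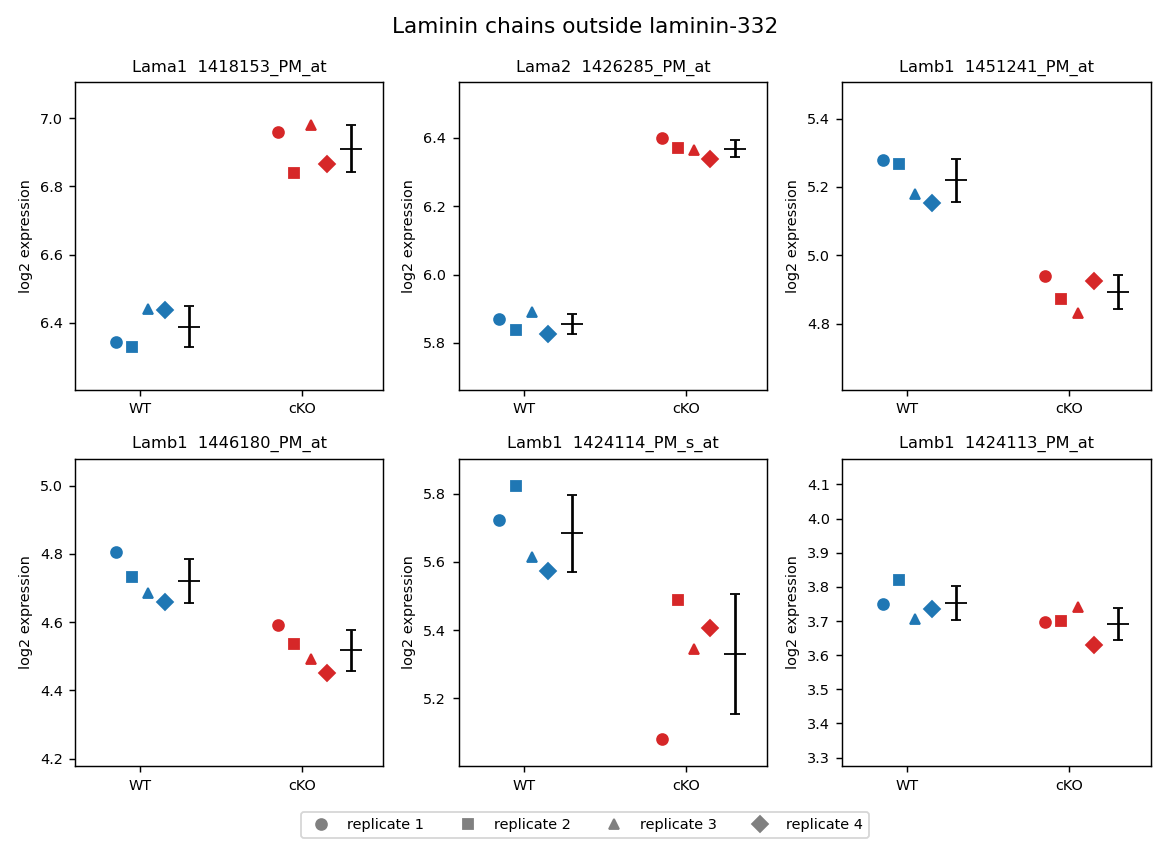
Each panel gives log2 expression at 1 probe set of Lama1, Lama2 or Lamb1 for the 4 WT (blue) and 4 cKO (red) arrays, with the mean and SD as bars and the same span in every panel. Lama1 and Lama2 are higher in every cKO array than in every WT array. Lamb1 is lower in every cKO array than in every WT array at 3 of its 4 probe sets. Groups that do not overlap, in either direction, occur in 4.89% of all probe sets.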

How the data were processed

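Per the labels' protocols, 25 ng of TRIzol-extracted RNA from each of 4 cKO and 4 WT samples went through 17 cycles of WTA2 amplification, and 8 µg of biotinylated cDNA was hybridised to a 1-colour array. The authors deposited log2 expression per probe set from RMA (per the submitters' processing notes, which state no version); that the scale is log2 was inferred from its range, 3.06 to 13.0. Quantile normalisation hides shifts common to all genes. Of 45141 rows, 104 control probe sets were left out. The platform annotation pairs 28898 tested probe sets with 1 gene, 551 with several and 15588 with none listed; current symbols came from a RefSeq table (GRCm38.p6) for 28689.

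The comparison of cKO and WT used limma 3.58.1 in R 4.3.3 over all 45037 probe sets, with two-sided p-values adjusted by Benjamini-Hochberg and called under 0.05. Errors of fold changes are limma's SE. Exact permutation tests were two-sided over 70 arrangements, with 0.0286 as the smallest possible p. The number of arrays limits the precision. Whether replicates are separate animals is not stated in the labels, and the p-values reflect only the spread among the arrays, which may be technical. The members, lists and tests were chosen with earlier results of these data known. Values per array are given for the brightest probe set of each gene, and for any other probe set with an unadjusted p under 0.05 or groups that did not overlap; of each list up to 4 genes are named by p, and Cd151, Col7a1, Itgb6, Adam17, Lamc1, Lamb2, Acta2 and Cd74 were added for their role or after their values were seen. In simulated data for this comparison (10 runs, 45037 probe sets), 21% of changes of 0.25, 66% of 0.5, 92.2% of 1 and 99.4% of 2 (log2) were recovered, with 5.50% false calls. The alternatives tried were a block by replicate number, leaving out arrays, a filter on the upper 50% by mean, median centring, cyclic loess, a prior with trend, array weights, a threshold of 0.10 and averaging the probe sets of a gene. Plots were drawn with matplotlib 3.10.9.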

Additional observations from a re-analysis of the deposited data

Results flagged for a closer look

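In 6 of 44 groups of 4 arrays, 1 array stood farther from the other 3 than Dixon's 95% critical value allows; chance alone gives about 5% of groups, and the probe sets share arrays, so the count is not one of independent events. In cKO these were cKO 4, low at 10.5 for Itgb4 at 1427387_PM_a_at (others 10.7), cKO 2, high at 4.33 for Itgb1 at 1426919_PM_at (others 4.10 to 4.13), and cKO 1, high at 11.2 for Dst at 1450119_PM_at (others 10.9). In WT these were WT 4, high at 11.1 for Dst at the same probe set (others 10.9 to 11.0) and low at 10.2 for Plec at 1437554_PM_at (others 10.3), and WT 1, high at 10.5 for Plec at 1434610_PM_at (others 10.4).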

How the results depend on the processing

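No alternative called any of the 22 probe sets: 0 passed under the replicate block, each left-out array, both cKO 2 and WT 4 left out, the filter, median centring, cyclic loess, the prior with trend, array weights, a threshold of 0.10 and averaging per gene. Their median fold change lay between -0.07 and 0.00 when 1 array was left out. Signs near 0 turned. Leaving out single arrays gave -0.0119 to 0.0565 for Plec at 1434610_PM_at, -0.0127 to 0.0679 for Plec at 1419835_PM_s_at, -0.0477 to 0.00829 for Dst at 1421117_PM_at, -0.0829 to 0.0371 for Dst at 1450119_PM_at, -0.0390 to 0.00458 for Col17a1, -0.14 to 0.00145 for Itgb1 at 1427771_PM_x_at, -0.11 to 0.0874 for Itgb1 at 1426920_PM_x_at, -0.10 to 0.00695 for Itga3 at 1460305_PM_at, -0.0134 to 0.0678 for Lama3 at 1427512_PM_a_at and -0.0586 to 0.0577 for Lamb3. Without both cKO 2 and WT 4 the values were -0.0124 for Itgb1 at 1426919_PM_at, 0.0216 and 0.0646 for Dst at 1421117_PM_at and 1450119_PM_at, and -0.00792 and -0.00103 for Plec at 1434610_PM_at and 1437554_PM_at. Plec at 1434610_PM_at stood at -0.00482 with median centring, Col17a1 at 0.00551 with array weights and Lama3 at -0.0141 with its probe sets averaged. Leaving out 1 array moved 20 of the 22 fold changes by over 1.5 times, those near 0 among them. Without a turn of sign, this held for Itga6 (-0.152 to -0.0595 at 1422444_PM_at, -0.178 to -0.0581 at 1422445_PM_at), Itgb4 (0.0438 to 0.113), Itga3 (-0.148 to -0.00906 at 1421997_PM_s_at, -0.172 to -0.0186 at 1455158_PM_at), Itgb1 (-0.222 to -0.0894 at 1426918_PM_at, 0.00541 to 0.0809 at 1426919_PM_at, -0.123 to -0.00522 at 1452545_PM_a_at), Lama3 at 1444860_PM_at (-0.0662 to -0.0214) and Plec at 1437554_PM_at (0.0144 to 0.0698). The low end in size came without cKO 4 for Itga6 at 1422445_PM_at, for both Itga3 sets and for Itgb1 at 1426918_PM_at and 1452545_PM_a_at. The other 2, Dst at 1421276_PM_a_at and 1423626_PM_at, moved less. The cause of these moves was not tested.

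Among all probe sets 210 were called, and 104 to 356 with 1 array left out, 657 without both cKO 2 and WT 4, 132 in the upper 50% by mean, 758 with array weights and 343 at a threshold of 0.10. The alternatives for basement membrane genes were chosen after seeing the data. There 2 genes were higher under each alternative run; 0 to 1 were lower with 1 array left out, 0 with the replicate block (Lamb1 adjusted p = 0.0891 by limma), 0 in the upper 50% by mean, where Lamb1 is not tested, and 2 without both cKO 2 and WT 4 or with array weights. Lamb1 at 1446180_PM_at passed with array weights (limma adjusted p = 0.0432). The replicate numbers were not used as pairs, because deviations of same-numbered arrays correlated at 0.13, 0.22, -0.62 and 0.37 over all probe sets; with that block 175 probe sets were called.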
